A study of Mus musculus with 24 samples.

Results

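Serpins are a family of proteins that mostly inhibit serine proteases, and the liver secretes many of them into plasma. The members described here are the genes whose deposited symbol is Serpin followed by a clade letter from a to i, a number and at most 1 further letter, with the 5 symbols ending in -ps left out. This gave 63 genes of the 55536 entries in the table, and 29 of the 63 had a mean of at least 1 TPM (a transcript's share of all transcripts, corrected for length and scaled to a fixed total) over all libraries. Expression had been measured by RNA sequencing in 24 liver libraries of wild-type Balb/c mice aged 6 weeks, 8 in each of 3 groups. The groups were healthy controls (Con), mice with acute pancreatitis (AP) and mice with severe acute pancreatitis (SAP). Acute pancreatitis is a sudden inflammation of the pancreas, and its severe form can injure distant organs. Neither the way pancreatitis was provoked nor the time of sampling is stated in the labels. These call the libraries of a group repeats and do not say whether each is a mouse of its own, so the p-values rest on a spread that may in part be technical.

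A typical serpin acts as a bait. The protease cuts an exposed stretch of the serpin called the reactive-centre loop, the cut loop inserts into the body of the serpin, and the protease is dragged along and left distorted and trapped. The sequence of the loop therefore sets which proteases a serpin can hold. Some members have lost this activity and serve as hormone carriers or as a chaperone. Several hepatic serpins belong to the acute-phase proteins, plasma proteins whose synthesis in hepatocytes changes during inflammation.

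The hepatocyte markers fixed as a check were abundant in all groups (summed level 34538 to 49683 TPM over the 24 libraries), with all 6 of them above 1 TPM on average. Alb and Apoa1, which make up most of that sum, did not pass in SAP against Con, whereas Asgr1 (287 to 178 TPM), Ttr (5826 to 2808 TPM) and Cps1 (825 to 337 TPM) were lower and Hnf4a (58.8 to 87.3 TPM) was higher. The share of TPM from mitochondrially encoded transcripts was 17.1 ± 3.68% in Con, 10.9 ± 2.0% in AP and 4.46 ± 1.02% in SAP (mean ± SD, n = 8 each), and that of the serum amyloid A genes was 0.327 ± 0.411%, 0.731 ± 0.366% and 9.52 ± 1.98%. As TPM is relative to a fixed total, such shifts move the values of all other genes, and their part in the serpin results was not tested. Within the SAP group the libraries numbered 21, 22, 24 and 25 (called SAP 21 to 25 here) stood apart from 26 to 29, with 17140 to 17385 genes above 0 in the former and 18180 to 18565 in the latter. Within the AP group libraries 15, 17, 18 and 19 stood apart from 11, 12, 13 and 16 in several serpins. The labels name no batch for these sets, and results that rest on them are given with and without them.

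By clade, the family was represented in liver mainly by clade A, the antitrypsin-like serpins that are mostly secreted. Of its 25 members, 18 had a mean of at least 1 TPM in Con, 18 in AP and 19 in SAP. Clade B holds the mostly intracellular serpins, and of its 27 members 1 reached that mean in Con, 1 in AP and 2 in SAP. The single members of clades C, D, G and H reached it in all 3 groups, as did both members of clade F. Of the 3 clade E members, 0 reached it in Con, 1 in AP and 2 in SAP, and of the 2 clade I members none did in any group. Summed over the family, 25 members reached 1 TPM in Con, 26 in AP and 29 in SAP. The 29 members in SAP are not the 29 that were tested, since Serpinb9 reached 1 TPM on average in SAP only and Serpina9 did so in Con and AP but not in SAP.

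The 34 members below a mean of 1 TPM over all libraries were not tested. Of these, 18 were listed at 0 in every library: Serpina16, Serpina1f, Serpinb3a to Serpinb3d, Serpinb6c to Serpinb6e, Serpinb9c to Serpinb9g, Serpinb11, Serpinb12, Serpinb13 and Serpini2. Serpinb9, an inhibitor of granzyme B, averaged 0.530 TPM in Con, 0.533 TPM in AP and 1.29 TPM in SAP, with a highest library of 2.41 TPM. Serpinb1a, an inhibitor of neutrophil serine proteases, had a highest library of 1.18 TPM. The highest library was 0.88 TPM for Serpina3a and 0.55 TPM for Serpinb6b. The other 12 stayed lower, from Serpinb8 at 0.48 TPM through Serpinb2, Serpinb10 and Serpini1 at 0.12 to 0.13 TPM to Serpina3b, Serpina3j and Serpinb7 at 0.04 TPM. Serpinb9b, Serpinb1b, Serpinb5, Serpinb1c and Serpine3 lay between 0.05 and 0.09 TPM.

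**Figure D1:**
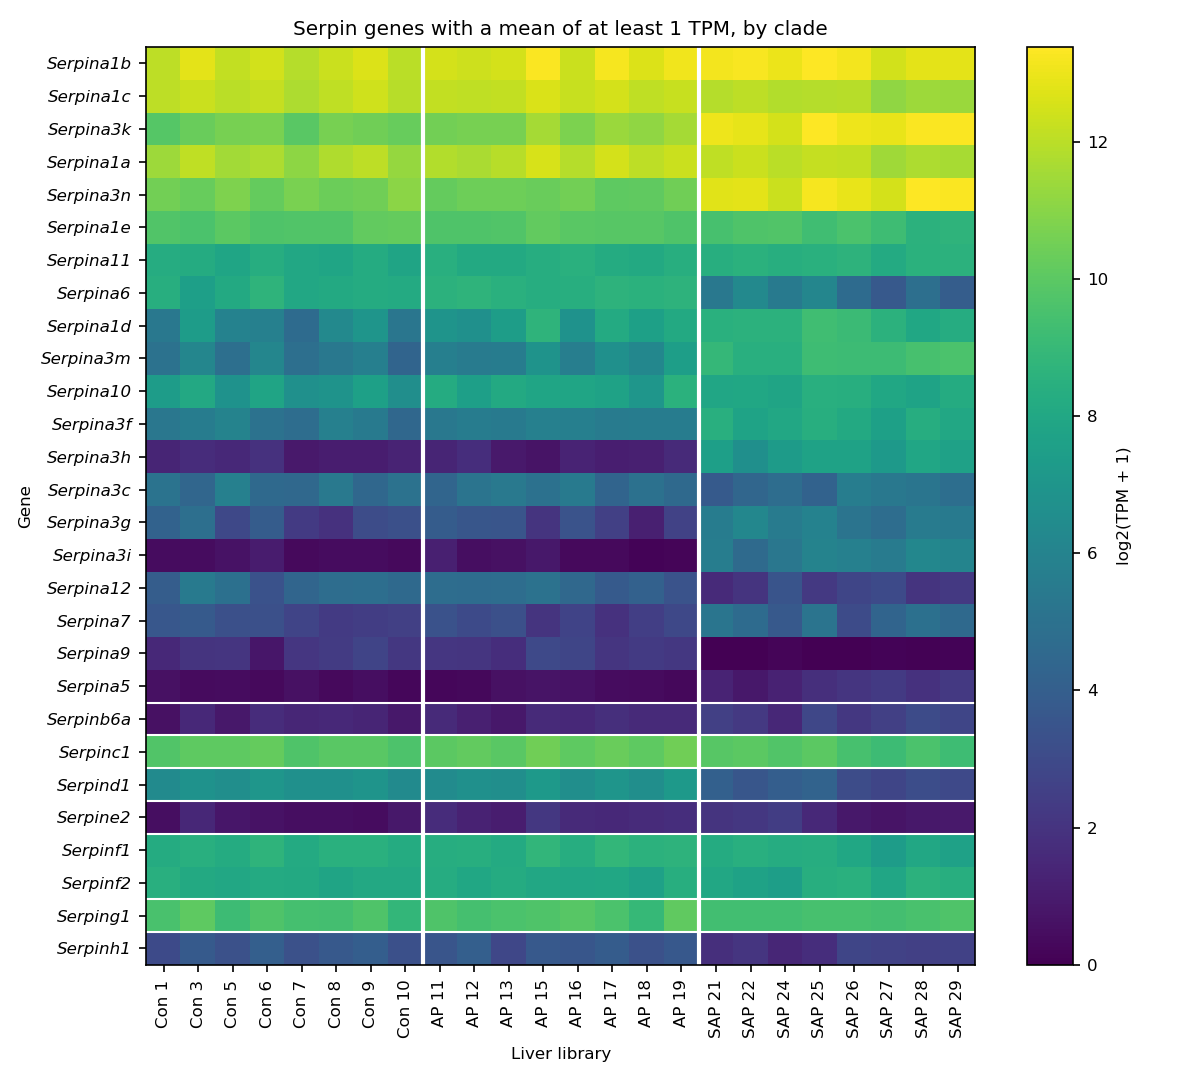
Level of 28 tested serpins (rows, ordered by clade) in each of the 24 libraries (columns, grouped as Con, AP and SAP), as log2(TPM + 1) on a colour scale. Serpina3h and Serpina3i are near the bottom of the scale in all Con and AP libraries and well above it in all 8 SAP libraries.

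Between SAP and Con, 16 of the 29 tested serpins were higher, 8 were lower and 5 did not pass (limma with Benjamini-Hochberg adjustment over all 10555 genes tested, threshold 0.05). Over all genes tested, 44.2% were higher, 29.8% were lower and 74.0% passed in either direction, so the 24 serpins that passed are to be read against changes in most of the transcriptome. The groups did not overlap in 13 serpins, 9 higher and 4 lower, against 37.8% of all genes tested. The median log2 difference was 0.70 over the tested serpins and 0.21 over all genes tested. Among the serpins reported, Serpina3i and Serpina5 averaged under 1 TPM in Con (0.445 and 0.351) and in AP (0.471 and 0.375). They met the filter for testing only through SAP, so their rise in SAP against either group was in part fixed by that selection. Serpine2 averaged 0.69 TPM in Con and met the filter through AP (2.1 TPM) and SAP (2.0 TPM). Its rises against Con were thus in part fixed in the same way. Serpina9 averaged 0.05 TPM in SAP and met the filter through Con and AP, which holds for its fall. The counts and the median include these genes. The serpins together took 2.02 ± 0.30% of all TPM in Con, 2.52 ± 0.468% in AP and 3.75 ± 0.507% in SAP (mean ± SD, n = 8 each), and every SAP library lay above every Con library. In bulk liver, a change in the number of cells of a type cannot be told apart from a change in RNA per cell.

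**Figure D2:**
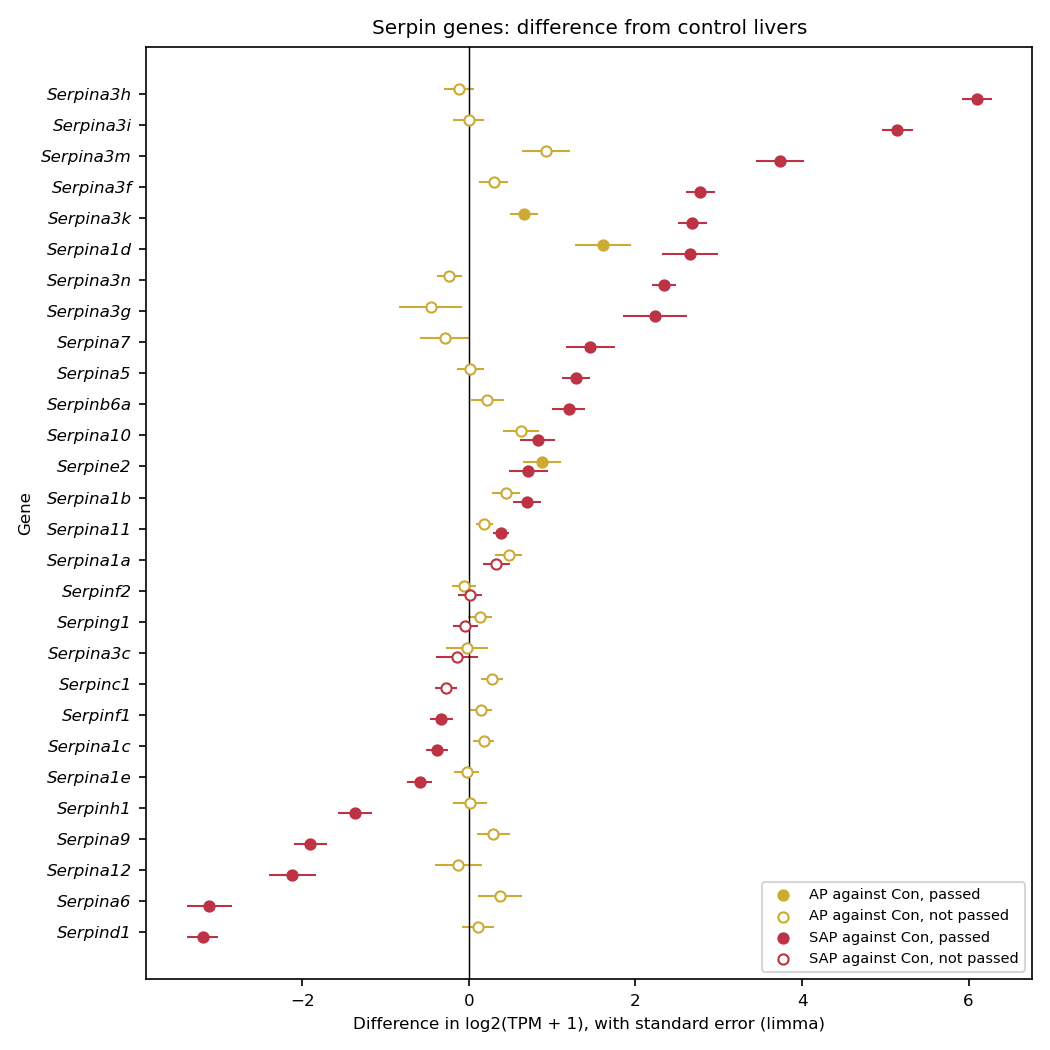
Log2 difference (on the log2(TPM + 1) scale, with bars of ± 1 SE from limma) of AP against Con and of SAP against Con for 28 tested serpins. The SAP differences run from -3.19 for Serpind1 to 6.10 for Serpina3h, and the AP differences from -0.46 for Serpina3g to 1.61 for Serpina1d.

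Serpina1 encodes alpha-1-antitrypsin, the main plasma inhibitor of neutrophil elastase. Humans have a single such gene and the mouse has several copies side by side on chromosome 12, of which Serpina1a to Serpina1e were tested here. The stretch that codes for the reactive-centre loop shows how alike the copies are and where they differ. It is printed for each copy from the GENCODE M21 transcripts (GRCm38, chromosome 12, coding sequence of the minus-strand genes, 5′ to 3′). Capitals mark the 18 of 81 bases that are not the same in all 5 copies.
Serpina1a: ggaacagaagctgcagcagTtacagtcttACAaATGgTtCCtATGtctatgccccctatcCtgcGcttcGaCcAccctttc
Serpina1b: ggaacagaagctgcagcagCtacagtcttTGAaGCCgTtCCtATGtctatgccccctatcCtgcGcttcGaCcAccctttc
Serpina1c: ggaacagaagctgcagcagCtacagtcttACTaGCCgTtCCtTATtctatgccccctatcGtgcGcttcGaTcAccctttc
Serpina1d: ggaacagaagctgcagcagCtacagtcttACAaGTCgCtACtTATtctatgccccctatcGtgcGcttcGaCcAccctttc
Serpina1e: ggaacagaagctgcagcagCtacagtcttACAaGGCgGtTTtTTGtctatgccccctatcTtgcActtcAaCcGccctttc
The remaining 63 bases were identical in all 5 copies. Any 2 copies differed at 5 to 12 bases, an identity of 85.2 to 93.8%, and Serpina1c and Serpina1d were the closest pair. These are letters of the reference genome, and whether Balb/c mice carry the same copies and letters was not tested.

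The copies did not move together. In SAP against Con, Serpina1b and Serpina1d rose, Serpina1c and Serpina1e fell, and Serpina1a did not pass. Serpina1b was the most abundant serpin in Con, with 3737 to 7209 TPM and a median of 4748 TPM. It had 5054 to 10033 TPM in AP (median 6259) and 5557 to 10578 TPM in SAP (median 8497), and the groups overlapped. The rise in SAP was 0.70 ± 0.17 (log2 difference ± SE, adjusted p = 0.000602).

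Serpina1d was the scarcest of the 5 copies. Its level was 24.7 to 169 TPM in Con (median 57.7), 103 to 419 TPM in AP (median 185) and 250 to 627 TPM in SAP (median 387). All 8 SAP libraries lay above every Con library, and the rise was 2.65 ± 0.33 (adjusted p = 1.03e-07). Serpina1c, by contrast, had 3366 to 5455 TPM in Con (median 4305), 4363 to 6206 TPM in AP (median 4727) and 2311 to 4240 TPM in SAP (median 3742). It was 0.38 ± 0.13 lower on the log2 scale in SAP (1.30-fold, adjusted p = 0.00911) with overlapping groups, and the call was lost without SAP 26 to 29 (-0.16, adjusted p = 0.246) and without Con 3 and Con 9 (-0.29, adjusted p = 0.0521).

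Serpina1e had 778 to 1201 TPM in Con (median 865), 828 to 1155 TPM in AP (median 904) and 385 to 849 TPM in SAP (median 670). It fell by 0.59 on the log2 scale in SAP (SE 0.15, adjusted p = 0.000945), and the groups overlapped. Serpina1a averaged 3227 ± 801 TPM in Con, 4482 ± 1036 TPM in AP and 4024 ± 806 TPM in SAP, and its SAP difference of 0.33 ± 0.16 did not pass (adjusted p = 0.0671). It passed as higher under quantile normalization (0.41, 0.0157), after rescaling without the 50 most abundant genes (0.33, 0.0476), without SAP 26 to 29 (0.54, 0.0147), without Con 3 and Con 9 (0.48, 0.00995) and without any one of Con 3, Con 9, SAP 27 and SAP 29.

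The shares of the copies differed between the groups more plainly than their sum. The 5 copies summed to 13784 ± 2701 TPM in Con, 17627 ± 3783 TPM in AP and 16754 ± 3213 TPM in SAP, and 4 of the 8 SAP libraries lay above every Con library. Serpina1b made up 37.1 ± 2.05% of the sum in Con and 49.4 ± 2.13% in SAP, with 35.3 to 41.1% and 47.2 to 52.2% as the ranges, which did not overlap. The share of Serpina1c was 32.1 ± 1.91% in Con and 20.3 ± 1.07% in SAP, also without overlap (28.4 to 34.96% against 18.5 to 21.7%). The share of Serpina1d was 0.498 ± 0.240% and 2.45 ± 0.589%, and that of Serpina1a was 23.2 ± 1.60% and 24.0 ± 0.547%. AP lay between for Serpina1b (39.6 ± 3.06%), Serpina1c (28.5 ± 2.90%) and Serpina1d (1.15 ± 0.356%). These shares depend on how reads were divided among near-identical copies: of all stretches of 50 bases in the transcript, 79.3% of those of Serpina1c, 67.4% of Serpina1a, 50.9% of Serpina1d, 35.8% of Serpina1b and 35.6% of Serpina1e also occur in another gene's transcripts. The level of each copy is therefore uncertain, and the sum is less so.

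**Figure D3:**
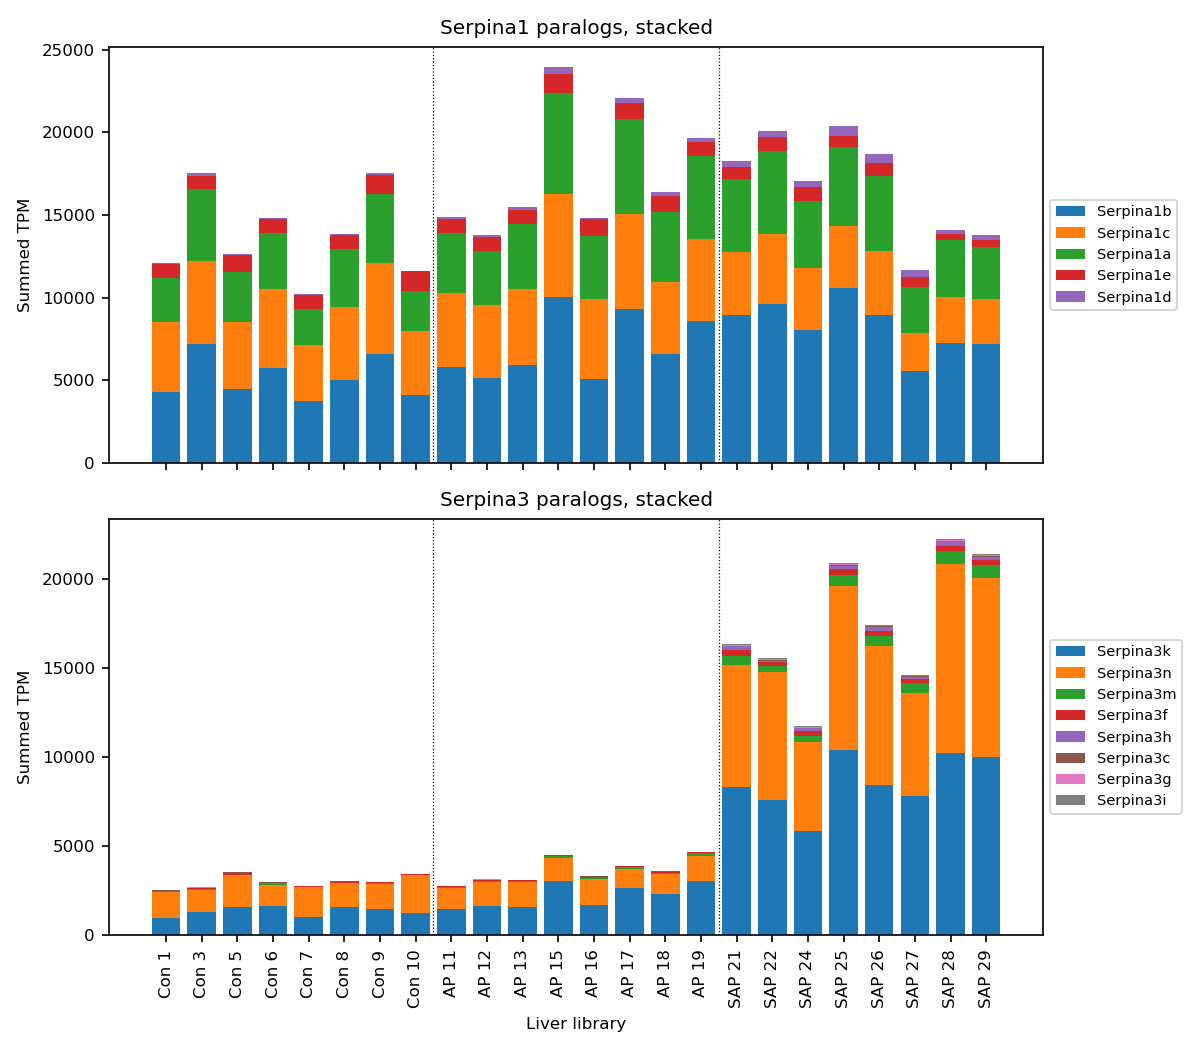
Stacked TPM of the 5 Serpina1 copies and of the Serpina3 genes tested in each of the 24 libraries, grouped as Con, AP and SAP. The Serpina1 totals of the 3 groups overlap, whereas the Serpina3 totals are 2540 to 3519 TPM in Con, 2774 to 4682 TPM in AP and 11745 to 22295 TPM in SAP.

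Serpina3 in humans encodes alpha-1-antichymotrypsin, an acute-phase inhibitor of chymotrypsin-like proteases. The mouse has a cluster of related genes in its place, and their reactive-centre loops differ far more than those of the Serpina1 copies. The coding stretch of the loop is shown for the 7 tested genes with a protein-coding transcript (GENCODE M21, GRCm38, chromosome 12, 5′ to 3′), because this is the part by which their protease targets differ. Capitals mark the variable stretch between the first 9 codons, the hinge, and the last 5 codons.
Serpina3c: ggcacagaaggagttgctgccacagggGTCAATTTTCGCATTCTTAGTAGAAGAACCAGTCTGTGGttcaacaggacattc
Serpina3f: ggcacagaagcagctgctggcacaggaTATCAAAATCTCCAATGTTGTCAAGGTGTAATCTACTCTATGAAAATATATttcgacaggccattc
Serpina3g: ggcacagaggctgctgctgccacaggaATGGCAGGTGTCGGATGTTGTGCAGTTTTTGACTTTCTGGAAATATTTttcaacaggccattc
Serpina3i: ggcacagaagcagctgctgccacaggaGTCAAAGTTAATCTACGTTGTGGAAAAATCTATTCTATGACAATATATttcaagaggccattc
Serpina3k: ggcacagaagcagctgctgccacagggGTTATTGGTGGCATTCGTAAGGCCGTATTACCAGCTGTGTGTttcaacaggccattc
Serpina3m: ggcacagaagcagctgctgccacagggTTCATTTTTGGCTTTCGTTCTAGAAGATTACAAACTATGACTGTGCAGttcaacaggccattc
Serpina3n: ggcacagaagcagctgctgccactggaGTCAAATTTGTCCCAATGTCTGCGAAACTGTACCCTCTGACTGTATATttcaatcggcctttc
The lengths are 81 to 93 bases, so the loops differ in length as well as in letters. Serpina3h is annotated in GENCODE M21 as a transcribed unprocessed pseudogene, and no coding stretch is printed for it.

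The Serpina3 genes carried most of the rise of the family in SAP. Of the 8 tested, 7 rose and Serpina3c did not pass. Their sum was 2990 ± 350 TPM in Con, 3621 ± 687 TPM in AP and 17548 ± 3715 TPM in SAP, 5.87 times as high in SAP as in Con, with all 8 SAP libraries above every library of the other groups. Serpina3n made up 51.0 ± 8.37% of the sum in Con and 44.4 ± 2.73% in SAP, and Serpina3k 44.7 ± 7.59% and 49.1 ± 2.39%.

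Serpina3k, a plasma protease inhibitor made by hepatocytes, had 937 to 1644 TPM in Con (median 1355), 1467 to 3035 TPM in AP (median 2002) and 5841 to 10395 TPM in SAP (median 8360). The rise in SAP was 2.68 ± 0.17 (adjusted p = 5.78e-13), and no SAP library reached down to a Con or AP library. Serpina3n, an acute-phase serpin that inhibits granzyme B, had 1177 to 2128 TPM in Con (median 1455), 1075 to 1468 TPM in AP (median 1314) and 5027 to 10645 TPM in SAP (median 7534). Its rise was 2.35 ± 0.15 (adjusted p = 4.08e-13), again without overlap, whereas its AP difference was -0.23 ± 0.15 and did not pass (adjusted p = 0.399). In AP, Serpina3k made up 58.8 ± 7.96% of the Serpina3 sum and Serpina3n 36.5 ± 7.93%.

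Serpina3h and Serpina3i were close to 0 in Con and high in SAP. Serpina3h had 0.87, 1.57 and 2.77 TPM as the lowest, median and highest of Con, 0.63, 1.39 and 2.41 TPM in AP, and 102, 193 and 237 TPM in SAP. It was 6.10 ± 0.18 higher in SAP (68.6-fold on the log2(TPM + 1) scale, adjusted p = 2.82e-19), and all 8 SAP libraries stood far above the others. Serpina3i, its neighbour, had 0.25 to 1.01 TPM in Con (median 0.37), 0.09 to 1.27 TPM in AP (median 0.335) and 23.7 to 72.7 TPM in SAP (median 52.5). Its difference was 5.14 ± 0.19 (adjusted p = 1.21e-17) and 6.61 with a pseudocount of 0.1, since adding 1 TPM shrinks the change of genes this low. Of the 50-base stretches of Serpina3h, 24.4% also occur in other transcripts, chiefly those of Serpina3i, so its level is uncertain.

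Serpina3m had 18.8 to 70.4 TPM in Con (median 36.3), 45.8 to 177 TPM in AP (median 62.8) and 341 to 772 TPM in SAP (median 572). The rise was 3.73 ± 0.29 (adjusted p = 1.98e-11) without overlap. Its annotated exons overlap those of Serpina3k on the same strand, so the 2 levels are not fully separate. Serpina3f had 21.2 to 61.6 TPM in Con (median 41.0), 39.5 to 55.3 TPM in AP (median 47.5) and 190 to 348 TPM in SAP (median 270), a rise of 2.78 ± 0.18 (adjusted p = 5.29e-13) without overlap.

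Serpina3g, an intracellular inhibitor that blocks lysosomal cysteine cathepsins, had 2.75 to 28.7 TPM in Con (median 8.13), 1.26 to 13.7 TPM in AP (median 7.55) and 27.0 to 71.1 TPM in SAP (median 46.6). It rose by 2.23 ± 0.38 (adjusted p = 1.15e-05), with 7 of 8 SAP libraries above every Con library. Serpina3c was the exception in the cluster. It averaged 31.0 ± 12.2 TPM in Con, 30.2 ± 9.44 TPM in AP and 28.7 ± 12.3 TPM in SAP, and its difference of -0.14 ± 0.25 did not pass (adjusted p = 0.63). Its share of the Serpina3 sum was 1.03 ± 0.332% in Con and 0.171 ± 0.0810% in SAP.

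Because 7 of these 8 neighbours rose, the promoters of 3 that rose and of Serpina3c are shown from the RefSeq table (GRCm38.p6, 250 bases before to 50 bases after the start of the gene, 5′ to 3′ along the gene). Capitals mark matches, on either strand, to 3 motifs of factors known for acute-phase genes: TTCNNNGAA (STAT), TTGCNNAA (C/EBP) and GGG, any 2 bases, then TTTCC (NF-kB). No 2 matches overlap in these windows.
Serpina3f, chr12:104214294-104214593, plus strand: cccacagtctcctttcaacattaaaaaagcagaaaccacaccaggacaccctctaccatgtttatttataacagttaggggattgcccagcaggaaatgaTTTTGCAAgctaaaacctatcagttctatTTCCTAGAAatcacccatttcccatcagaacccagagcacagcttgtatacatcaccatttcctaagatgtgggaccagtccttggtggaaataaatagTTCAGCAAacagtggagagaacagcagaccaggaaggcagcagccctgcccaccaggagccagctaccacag
Serpina3i, chr12:104262872-104263171, plus strand: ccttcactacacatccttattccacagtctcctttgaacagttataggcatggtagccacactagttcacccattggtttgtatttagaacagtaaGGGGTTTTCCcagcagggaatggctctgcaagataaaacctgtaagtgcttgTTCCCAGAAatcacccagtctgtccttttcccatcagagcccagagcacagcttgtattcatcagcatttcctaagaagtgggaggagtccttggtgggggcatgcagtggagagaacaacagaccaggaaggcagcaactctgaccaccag
Serpina3n, chr12:104406458-104406757, plus strand: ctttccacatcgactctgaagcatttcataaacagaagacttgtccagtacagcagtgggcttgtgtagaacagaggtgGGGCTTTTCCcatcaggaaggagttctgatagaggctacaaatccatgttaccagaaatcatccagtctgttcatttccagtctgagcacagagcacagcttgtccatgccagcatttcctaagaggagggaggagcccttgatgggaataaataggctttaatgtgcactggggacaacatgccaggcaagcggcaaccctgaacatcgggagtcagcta
Serpina3c, chr12:104153823-104154122, minus strand: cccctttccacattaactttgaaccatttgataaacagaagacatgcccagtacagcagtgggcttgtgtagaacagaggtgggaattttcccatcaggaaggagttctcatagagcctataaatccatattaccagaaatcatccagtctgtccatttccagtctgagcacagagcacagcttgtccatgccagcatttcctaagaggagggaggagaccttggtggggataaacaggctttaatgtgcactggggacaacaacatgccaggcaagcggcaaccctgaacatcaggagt
Serpina3f held a STAT match at position -121 from the start and 2 C/EBP matches. Serpina3i held a STAT match at position -102 and an NF-kB match at position -154. Serpina3n held an NF-kB match at position -171, and Serpina3c held none of the 3. At the place of that match, however, the letters of Serpina3c (ggaattttcc) come close to the NF-kB letters without meeting them. Serpina3g, which is not shown, held a STAT match at position -33 and an NF-kB match at position -85. No promoter was available for Serpina3h, Serpina3k and Serpina3m, which rose. Among all 32851 promoters in the table, 8.30% held the STAT letters, 10.8% the C/EBP letters and 1.63% the NF-kB letters. Of the 29 tested serpins, 21 were found in the table, with 25 promoters between them. In at least 1 promoter, 5 of these genes had a STAT match, 9 a C/EBP match and 3 an NF-kB match. These are counts of genes, whereas the percentages are shares of promoters, so the 2 are not like measures. A match describes letters in this window and says nothing of binding.

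**Figure D4:**
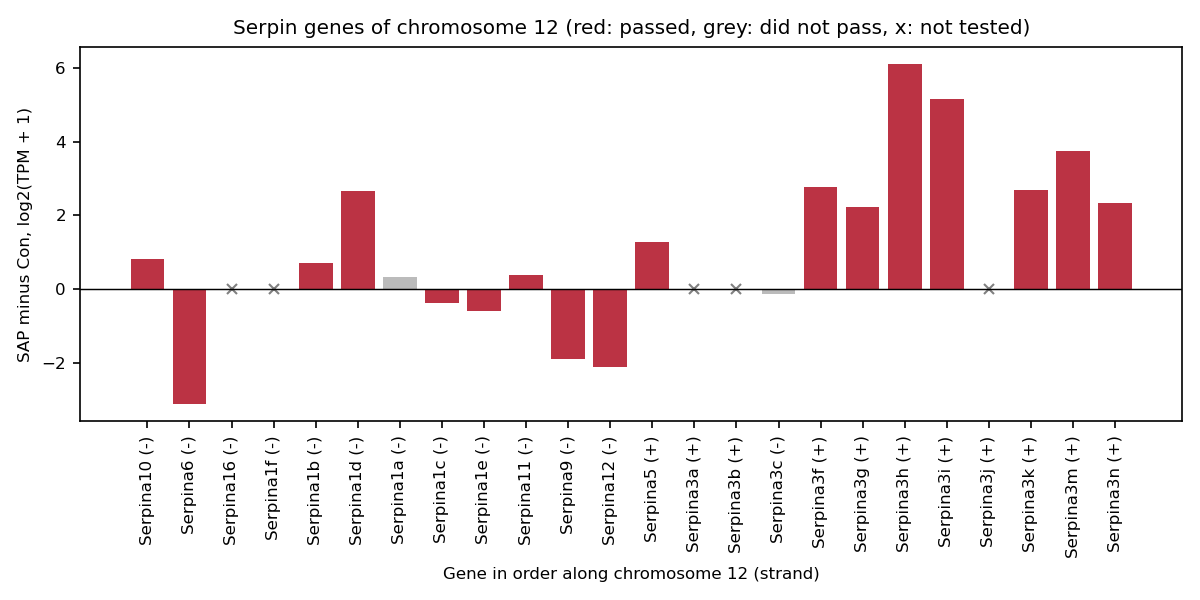
Log2 difference of SAP against Con (log2(TPM + 1) scale, limma) for the tested serpins on chromosome 12, in the order of the genes along the chromosome. The Serpina3 genes at the right end, apart from Serpina3c, are all above 2, whereas the genes from Serpina10 to Serpina12 at the left end are a mixture of higher and lower.

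Most of clade A lies together. Of the 63 members, 24 are on chromosome 12 and 19 of these were tested, and all of clade B is on chromosomes 1 and 13. Along chromosome 12 the order is Serpina10, Serpina6, Serpina16, Serpina1f, Serpina1b, Serpina1d, Serpina1a, Serpina1c, Serpina1e, Serpina11, Serpina9 and Serpina12 on the minus strand, then Serpina5, Serpina3a and Serpina3b on the plus strand. Serpina3c follows on the minus strand, and then Serpina3f, Serpina3g, Serpina3h, Serpina3i, Serpina3j, Serpina3k, Serpina3m and Serpina3n on the plus strand. Direct neighbours often differed: Serpina10 rose and Serpina6 fell, Serpina1e fell and Serpina11 rose, and Serpina9 next to Serpina11 fell. The run from Serpina3f to Serpina3n held no tested gene that fell or failed to pass.

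Among the hormone carriers, which bind a hormone and do not inhibit proteases, the corticosteroid and the thyroid carrier went opposite ways. Serpina6, corticosteroid-binding globulin, had 186 to 413 TPM in Con (median 287), 326 to 413 TPM in AP (median 384) and 12.1 to 76.9 TPM in SAP (median 34.3). It fell by 3.11 on the log2 scale (SE 0.27, 8.65-fold lower, adjusted p = 1.77e-10), and every SAP library lay below every Con and AP library. SAP 26 to 29 had 12.1 to 29.0 TPM and SAP 21 to 25 had 39.6 to 76.9 TPM, and the log2 difference was -3.86 with the former alone and -2.37 with the latter alone. Serpina7, thyroxine-binding globulin, had 3.85 to 12.9 TPM in Con (median 7.16), 2.74 to 9.39 TPM in AP (median 5.92) and 7.26 to 35.7 TPM in SAP (median 24.0). It rose by 1.46 ± 0.29 (adjusted p = 8.53e-05), with 6 of 8 SAP libraries above every Con library.

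Of the serpins that act on proteases of blood clotting and its control, heparin cofactor II fell and antithrombin did not pass. The protein Z-dependent inhibitor and protein C inhibitor rose. Serpind1, heparin cofactor II, a thrombin inhibitor, had 82.2 to 129 TPM in Con (median 104), 88.2 to 149 TPM in AP (median 101) and 6.00 to 18.3 TPM in SAP (median 9.62). It fell by 3.19 on the log2 scale (SE 0.19, 9.15-fold lower, adjusted p = 1.71e-13) with no overlap. Serpinc1, antithrombin, the main plasma inhibitor of thrombin and factor Xa, had 805 to 1174 TPM in Con (median 987), 985 to 1449 TPM in AP (median 1104) and 569 to 1027 TPM in SAP (median 814). Its SAP difference of -0.27 ± 0.13 did not pass (adjusted p = 0.0629), but passed without SAP 21 to 25 (-0.54, adjusted p = 0.000965) and without any one of SAP 21, SAP 22, SAP 25, Con 7 and Con 10. It also passed as lower under each other scaling, with quantile normalization (-0.29, adjusted p = 0.0314), median centring (-0.55, 0.00259) and rescaling without the 50 most abundant genes (-0.27, 0.0469). Antithrombin shares 58.8% of its 50-base stretches with other transcripts, among them those of the overlapping Zbtb37 on the opposite strand, and whether the counting used the strand is not given in the sources used here.

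Serpina10, the protein Z-dependent inhibitor of factor Xa, had 95.3 to 271 TPM in Con (median 141), 130 to 375 TPM in AP (median 232) and 216 to 341 TPM in SAP (median 253). It rose by 0.83 ± 0.21 (adjusted p = 0.00115), although only 3 of 8 SAP libraries lay above every Con library. Serpina5, protein C inhibitor, had 0.18 to 0.52 TPM in Con (median 0.325), 0.18 to 0.63 TPM in AP (median 0.33) and 0.80 to 3.77 TPM in SAP (median 2.64). It rose by 1.29 ± 0.16 (adjusted p = 1.32e-07), and all SAP libraries were above all others, though at levels close to 1 TPM. With a pseudocount of 0.1 the difference was 2.40.

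Of the serpins of clot dissolution and thrombin control at the cell surface, Serpine2 rose and Serpinf2 did not pass. Serpinf2, alpha-2-antiplasmin, the plasma inhibitor of plasmin, averaged 278 ± 35.3 TPM in Con, 269 ± 42.5 TPM in AP and 288 ± 74.9 TPM in SAP, and its difference of 0.02 ± 0.14 did not pass (adjusted p = 0.93). Centred on the library median it passed with the other sign (-0.26, adjusted p = 0.0427). Serpine2, protease nexin 1, a cell-bound thrombin inhibitor, had 0.36 to 1.76 TPM in Con (median 0.495), 1.13 to 3.49 TPM in AP (median 2.08) and 0.61 to 4.36 TPM in SAP (median 1.40). Its SAP rise of 0.72 ± 0.23 (adjusted p = 0.00749) rested on SAP 21 to 25, which had 1.91 to 4.36 TPM. Libraries 26 to 29 had 0.61 to 0.88 TPM, and without SAP 21 to 25 the difference was 0.11 (adjusted p = 0.59). Centring on the library median also ended the call (adjusted p = 0.142). The rise was in part fixed by the filter for testing, as Serpine2 averaged under 1 TPM in Con.

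Serping1, the C1 inhibitor, which restrains the first complement proteases and plasma kallikrein, averaged 737 ± 181 TPM in Con, 805 ± 175 TPM in AP and 701 ± 64.1 TPM in SAP, a SAP difference of -0.04 ± 0.15 that did not pass (adjusted p = 0.817). Centred on the library median it passed as lower (-0.32, adjusted p = 0.0102).

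**Figure D5:**
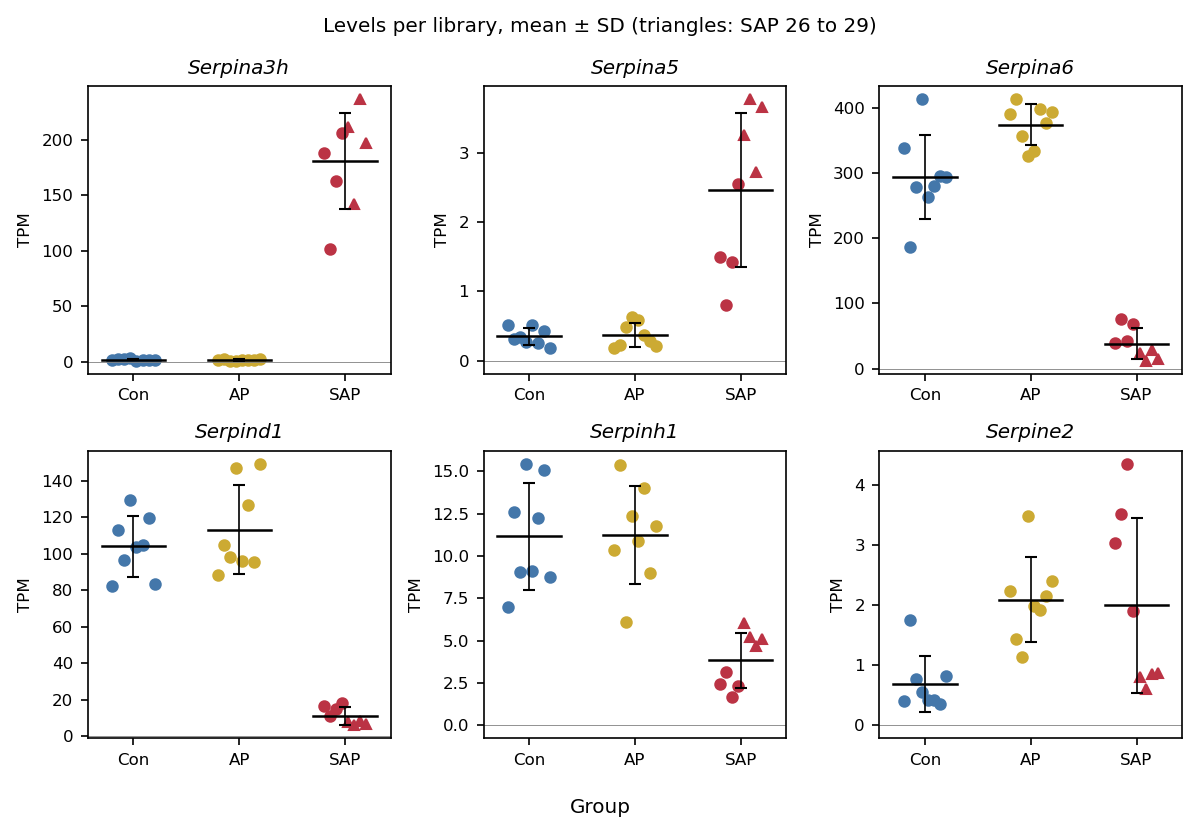
TPM of Serpina3h, Serpina5, Serpina6, Serpind1, Serpinh1 and Serpine2 in each library by group, with the mean and SD of 8 libraries per group and triangles for SAP 26 to 29. In Serpina5, Serpina6, Serpind1, Serpinh1 and Serpine2 the triangles do not overlap the other 4 SAP libraries.

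Both remaining non-inhibitory members were lower in SAP. Serpinh1, the collagen chaperone Hsp47 of the endoplasmic reticulum, had 6.97 to 15.5 TPM in Con (median 10.7), 6.13 to 15.4 TPM in AP (median 11.3) and 1.67 to 6.07 TPM in SAP (median 3.93). It fell by 1.36 on the log2 scale (SE 0.20, 2.57-fold lower, adjusted p = 1.73e-06), and no SAP library reached the lowest Con library. SAP 21 to 25 had 1.67 to 3.17 TPM and SAP 26 to 29 had 4.69 to 6.07 TPM. Serpinf1, pigment epithelium-derived factor, a secreted inhibitor of vessel growth, had 294 to 416 TPM in Con (median 324), 290 to 457 TPM in AP (median 363) and 168 to 344 TPM in SAP (median 278). Its difference of -0.33 ± 0.14 (adjusted p = 0.0318) was lost without SAP 26 to 29 (adjusted p = 0.737), without any one of Con 6, Con 8, Con 9, SAP 27 and SAP 29 (adjusted p = 0.0513 to 0.0848), without Con 3 and Con 9 together (0.0749) and with no filter on low values (0.0512).

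Serpina12, vaspin, a serpin known from adipose tissue that inhibits a kallikrein-related peptidase, had 9.48 to 44.0 TPM in Con (median 24.6), 9.81 to 32.1 TPM in AP (median 24.0) and 2.06 to 9.99 TPM in SAP (median 3.66). It fell by 2.12 on the log2 scale (SE 0.29, 4.33-fold lower, adjusted p = 3.58e-07), with 7 of 8 SAP libraries below every Con library. Serpina9, known in humans from germinal-centre B cells, had 0.75 to 5.69 TPM in Con (median 3.23), 2.31 to 6.85 TPM in AP (median 3.43) and at most 0.13 TPM in SAP (median 0.045). It was lower in all 8 SAP libraries than in any other library, with a difference of -1.90 ± 0.20 (adjusted p = 5.44e-09) and of -4.31 with a pseudocount of 0.1.

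Serpina11 had 223 to 327 TPM in Con (median 281), 274 to 357 TPM in AP (median 311) and 284 to 403 TPM in SAP (median 365). It rose by 0.39 ± 0.10 (adjusted p = 0.00139), with 7 of 8 SAP libraries above every Con library, and the call was lost after centring on the library median (0.11, adjusted p = 0.262). Of its 50-base stretches 44.4% also occur in other transcripts, since it overlaps Gm28577 on the same strand. Serpinb6a, the sole clade B member tested, an intracellular inhibitor of cathepsin G, had 0.54 to 2.29 TPM in Con (median 1.67), 0.84 to 2.43 TPM in AP (median 2.0) and 1.77 to 7.33 TPM in SAP (median 4.79). It rose by 1.2 ± 0.2 (adjusted p = 6.36e-06), with 7 of 8 SAP libraries above every Con library, and it overlaps 3 genes on the opposite strand.

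In AP against Con, 3 of the 29 tested serpins rose, none fell and 26 did not pass (limma, 8 of the 29 with an unadjusted p under 0.05, all 8 of them higher and 0 lower). Over all genes tested 4.35% were higher, 1.13% lower and 5.48% in either direction, and the groups were separate in 0 serpins against 0.748% of all genes, 0.644% higher. The median log2 difference was 0.14 over the serpins and 0.06 over all genes. The 3 that rose were Serpina1d, Serpina3k and Serpine2, whose ranges are given with their groups.

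Serpina1d rose by 1.61 ± 0.33 in AP (adjusted p = 0.00892), with 5 of 8 AP libraries above every Con library. Serpina3k rose by 0.66 ± 0.17 (adjusted p = 0.0254), also with 5 of 8 libraries above every Con library, and Serpine2 rose by 0.88 ± 0.23 (adjusted p = 0.0285) with 6 of 8. As Serpine2 averaged 0.69 TPM in Con, its AP rise was in part fixed by the filter for testing. Next in order were Serpina3m (0.92 ± 0.29, adjusted p = 0.0574), Serpina1a (0.48 ± 0.16, 0.0785), Serpina10 (0.63 ± 0.21, 0.0826) and Serpina1b (0.44 ± 0.17, 0.118), which did not pass.

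These AP differences were larger in AP 15, 17, 18 and 19 than in the other 4 AP libraries. Serpina3k was at 2321 to 3035 TPM in those 4 libraries and at 1467 to 1684 TPM in AP 11, 12, 13 and 16, where the highest Con library had 1644 TPM. Serpina1d was at 195 to 419 TPM in the former and at 103 to 176 TPM in the latter. Of the 29 tested serpins 8 were separate between the 2 sets of AP libraries (27.6%), against 14.9% of all genes tested. Serpina1b, Serpina3k, Serpina1a, Serpinf1, Serpina1d, Serpina3m and Serpinb6a were higher in AP 15, 17, 18 and 19, and Serpina3g was lower. Without these 4 libraries limma called 0 serpins in AP and 0.104% of all genes tested, and without the other 4 it called 6 serpins and 11.7% of all genes. With these 4 left out the log2 difference was 1.02 for Serpina1d (adjusted p = 0.601), 0.27 for Serpina3k (0.928) and 0.69 for Serpine2 (0.764), so for Serpine2 the difference stayed close to the 0.88 of all 8 libraries. The calls of Serpina3k and Serpine2 were also lost without any one of Con 1, Con 7, Con 10, AP 15, AP 17 and AP 19, and 7 serpins and 8.63% of all genes passed without Con 3 and Con 9. The sets were told apart from these values, so they are a description of the libraries and not of 2 conditions. For the same reason the 27.6% of serpins against 14.9% of all genes is no test of the serpins.

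Against AP, 12 of the 29 tested serpins were higher in SAP, 9 were lower and 8 did not pass, while 41.0% of all genes tested were higher, 31.0% lower and 72.1% either. The groups were separate in 14 serpins, 9 higher and 5 lower, against 37.3% of all genes. The 5 separate and lower were Serpina6, Serpind1, Serpinh1, Serpina9 and Serpina1c, and Serpina1c fell by 0.56 on the log2 scale (SE 0.13, adjusted p = 0.000367). Serpina3g, which overlapped Con by 1 library, was separate from AP and higher by 2.69 ± 0.38 (adjusted p = 8.76e-07). The 8 that did not pass were Serpina1a, Serpina1b, Serpina3c, Serpina10, Serpina11, Serpine2, Serpinf2 and Serping1. Of these, Serpine2 passed as lower in SAP than in AP without SAP 21 to 25 (-0.76, adjusted p = 0.000951, against -0.16 with all libraries), and Serpina11 passed as higher under quantile normalization (0.43, adjusted p = 0.000173, against 0.20), after rescaling without the 50 most abundant genes (0.34, 0.00155) and without SAP 27 (0.24, 0.0322). Serpina1b passed as higher without AP 15, 17, 18 and 19 (0.57, 0.00763) and after the same rescaling (0.39, 0.0256). Quantile normalization also called Serpinf2 (0.33, 0.0346) and Serpina10 (0.46, 0.0295) higher, and median centring called Serping1 lower (-0.40, 0.0018). Serpina1d was 1.05 ± 0.33 higher in SAP than in AP (adjusted p = 0.00699), and the call was lost without AP 11, 12, 13 and 16 (0.46, adjusted p = 0.3) and without SAP 21 to 25 (0.91, adjusted p = 0.0684). Serpinc1 passed here, 0.55 ± 0.13 lower in SAP (1.46-fold, adjusted p = 0.000562), but not without SAP 26 to 29 (adjusted p = 0.0521). Serpinf1 fell by 0.47 on the log2 scale (SE 0.14, adjusted p = 0.00326), and that call was lost without SAP 26 to 29 (0.173), without AP 15, 17, 18 and 19 (0.142) and after quantile normalization (0.0991). Both comparisons of SAP use the same SAP libraries.

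The 2 sets of SAP libraries were separate in 8 of the 29 tested serpins (27.6%) and in 33.4% of all genes tested, so the share among the serpins was not above the background. Serpinc1, Serpinf1, Serpina6, Serpind1 and Serpine2 were higher in SAP 21 to 25, and Serpina3c, Serpinh1 and Serpina5 were higher in SAP 26 to 29. Serpind1 had 11.1 to 18.3 TPM in the former and 6.00 to 8.10 TPM in the latter, both far below Con. Serpinc1 had 849 to 1027 TPM and 569 to 779 TPM, so the first set lay within the Con range and the second below it. Serpina3c had 12.7 to 26.5 TPM and 27.1 to 49.0 TPM, and without SAP 26 to 29 it passed as lower than in Con (-0.62, adjusted p = 0.0488). Serpina5 had 0.80 to 2.55 TPM and 2.72 to 3.77 TPM.

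The proteases that serpins are known to inhibit changed in both directions in SAP. Of 32 such genes 20 were tested, and 8 were higher, 10 lower and 2 not passed against Con, with a median log2 difference of -0.29. The shares over all genes tested were 44.2% higher, 29.8% lower and 74.0% in either direction, with a median of 0.21. Klkb1, plasma prekallikrein, went from 34.4 to 1.82 TPM (Con and SAP means, log2 difference -3.69 ± 0.16). Hpn, the membrane protease hepsin, went from 269 to 76.9 TPM (-1.80 ± 0.09), and Hgfac, the activator of hepatocyte growth factor, from 145 to 50.8 TPM (-1.50 ± 0.12). Ctsl, the lysosomal protease cathepsin L, rose from 77.3 to 1523 TPM (4.37 ± 0.21). In AP, 2 of the 20 passed, against 5.48% of all genes tested. Both were higher: F2, prothrombin (273 TPM in Con and 427 TPM in AP), and Proc, protein C (261 and 342 TPM).

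Of 30 protease inhibitors that are not serpins, 22 were tested, and 12 were higher, 5 lower and 5 not passed in SAP against Con (median 0.48). These counts stand beside 44.2% higher, 29.8% lower and 74.0% in either direction over all genes tested (median 0.21). Slpi, an inhibitor of neutrophil elastase, rose from 2.32 to 126 TPM, and Timp1, an inhibitor of metalloproteinases, from 1.17 to 33.9 TPM. The inter-alpha-inhibitor heavy chains Itih2 (81.4 to 413 TPM) and Itih4 (1284 to 5493 TPM) rose as well. Timp3, also counted as higher, averaged 0.25 TPM in Con, 0.365 TPM in AP and 4.05 TPM in SAP. It met the filter for testing only through SAP, so its rise was in part fixed by that selection. In AP 3 passed, against 5.48% of all genes tested. All were higher: Itih2 (122 TPM), Itih4 (1994 TPM) and Pzp, an alpha-2-macroglobulin relative (1360 TPM in Con and 2072 TPM in AP).

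Of 21 receptors, cofactors and clients of serpins, 16 were tested, and 8 were higher, 5 lower and 3 not passed in SAP against Con (median 0.32). Here too the shares over all genes tested were 44.2% higher, 29.8% lower and 74.0% in either direction (median 0.21). Plaur, the urokinase receptor, rose from 0.310 to 9.72 TPM, and Pnpla2, a triglyceride lipase and receptor of the Serpinf1 product, from 18.4 to 79.7 TPM. Plaur (0.209 TPM in AP) and Thbd (0.19 TPM in Con, 0.24 TPM in AP, 3.18 TPM in SAP) met the filter for testing only through SAP. Both are counted as higher, and their rise was in part fixed by that selection. The basement membrane collagens Col4a1 (4.81 to 46.3 TPM) and Col4a2 (1.92 to 12.3 TPM), clients of the Serpinh1 product, rose. Among the other collagen clients in the list, Col3a1 (7.04 to 3.53 TPM, -0.89 ± 0.26, adjusted p = 0.00338) and Col1a1 (2.10 to 0.968 TPM, -0.57 ± 0.25, adjusted p = 0.0409) fell, as did Serpinh1, and Col1a2 did not pass (2.90 to 2.37 TPM). In AP, limma called 0 of the 16 and 5.48% of all genes tested.

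Markers of other cell types went different ways in SAP, where 74.0% of all genes tested passed against Con. Those of neutrophils, which can carry serpins of clade B, summed to 2.48 to 28.7 TPM in Con, 3.74 to 7.63 TPM in AP and 124 to 348 TPM in SAP. Of these 8 markers 3 were tested and all 3 (S100a8, S100a9 and Retnlg) were higher in SAP, while the other 5, Ly6g, Mpo, Elane, Csf3r and Cxcr2, had means under 1 TPM over all libraries. Retnlg averaged 0.175 TPM in Con, 0.234 TPM in AP and 5.63 TPM in SAP. It met the filter for testing only through SAP, so its rise was in part fixed by that selection. The SAP mean of Elane was below that of Con (0.056 and 0.205 TPM), whereas those of Ly6g, Mpo, Csf3r and Cxcr2 were above it. Stellate cell and fibroblast markers, which bear on Serpinh1, summed to 24.4 to 52.0 TPM in Con, 15.5 to 47.3 TPM in AP and 53.8 to 127 TPM in SAP, with 2 of 5 tested higher and 2 lower. Platelet markers, which bear on Serpine2, summed to 3.16 to 4.75 TPM, 3.28 to 5.90 TPM and 13.2 to 31.7 TPM, with Pf4 higher, Itga2b lower and Ppbp and Gp9 under 1 TPM on average. Endothelial markers summed to 16.1 to 42.4 TPM, 14.7 to 44.5 TPM and 12.2 to 35.6 TPM, but their members went opposite ways in SAP. Clec4g fell (17.8 to 3.01 TPM), Cdh5 (1.74 to 7.13 TPM) and Stab2 (1.92 to 9.25 TPM) rose, and Pecam1 and Tie1 did not pass. Kupffer cell and macrophage markers summed to 60.0 to 239 TPM, 42.3 to 136 TPM and 48.4 to 94.6 TPM, and all 5 tested passed in SAP: Cd5l (19.0 to 3.99 TPM), Vsig4, Clec4f and Cd68 were lower and Marco (3.38 to 15.9 TPM) was higher. Of the 3 monocyte markers tested, 1 was lower and 2 did not pass. The 1 cholangiocyte marker tested did not pass, and the 1 of exocrine pancreas (Cela1, 25.5 to 12.0 TPM) was lower. No marker of T and NK cells was tested. The part of these cells in the serpin results was not tested.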

How the data were processed

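RNA from frozen liver had been extracted with Trizol and sequenced with Illumina protocols, per the labels. The authors deposited a table of 55536 genes by 24 libraries. The unit was read from the deposited values: each library sums to 986423 to 993642, so they were taken as TPM. Depth is therefore unknown, and no counting interval can be given. Per the submitters' processing notes edgeR was used. Aligner, build, annotation and the conversion to TPM: not given in the sources used here. Libraries were grouped by their titles. Columns left unmapped were 0.

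Values were taken as log2(TPM + 1). Genes averaging 1 TPM or more across the 24 libraries (10555) were fitted with limma 3.58.1 in R 4.3.3 (intensity trend, 21 residual degrees of freedom, 3 groups), with Benjamini-Hochberg adjustment within each comparison and a threshold of 0.05. Fold changes on this scale understate the change of low genes. A gene averaging under 1 TPM in some group could meet the filter only through groups where it was higher. The direction of its difference was then in part fixed by the filter. The code was tested on simulated data. Of the 29 tested serpins 1 is not reported here, though it stays in all tests and counts. The other 28 are named, and up to 4 genes of each list with the smallest p over the 3 groups. Members and lists were chosen with earlier results of these data known. Shared sequence was read from GENCODE M21 transcripts in windows of 50 bases, with levels called uncertain from 20%. Promoters came from RefSeq. Loops, shared sequence and promoters are all those of the reference genome, and the Balb/c sequence was not checked. Alternatives covered scaling, pseudocount, filters, variance model, samples fitted and libraries left out. Those that leave out AP libraries as sets were chosen after seeing the data.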

Additional observations from a re-analysis of the deposited data

Results flagged for a closer look

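The 28 tested serpins reported, in 3 groups, gave 84 sets of 8 libraries, and in 2 of them a single library stood apart from the other 7, with a gap to the next library, as a share of the whole range, above Dixon's critical value for 8 values. Chance flags about 1 set in 20. Serpine2 was 1.76 TPM in Con 3, with the next library at 0.82 TPM. Serpina3i was 1.01 TPM in Con 6, with the next at 0.57 TPM. Both values are close to 1 TPM. Con 3 also had the highest serum amyloid A share of the controls (1.14% of TPM), and its part in these values was not tested.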

How the results depend on the processing

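No called serpin changed sign under any alternative run. For called serpins, 1660 recomputed values kept the direction and the call and 39 lost the call. The count of serpins higher in AP against Con, 3 as reported, was 1 with no filter on low values, 7 without Con 3 and Con 9, 0 without AP 15, 17, 18 and 19, 6 without AP 11, 12, 13 and 16, and 1 to 6 when each library was left out in turn. It was 1 without any one of Con 1, Con 7, Con 10, AP 15, AP 17 and AP 19, 6 without Con 3 and 5 without Con 6. The share of all genes called moved alike: 5.48% as reported, 0.823% with no filter, 8.63% without Con 3 and Con 9, 0.104% and 11.7% without the respective AP libraries, 1.71 to 2.25% without the single libraries that gave 1, 7.97% without Con 3 and 7.58% without Con 6. Serpina3k in AP also lost its call after quantile normalization (adjusted p = 0.117) and after rescaling without the 50 most abundant genes (0.0553), and Serpine2 after median centring (0.0539). Serpins higher in SAP ranged from 14 to 18 against Con and from 11 to 15 against AP, and serpins lower from 6 to 11 and from 7 to 10. Of all genes tested, 71.6 to 77.6% were called in either direction against Con and 63.4 to 75.7% against AP. The exception was the run with no filter, with 41.2% and 38.8%. The median log2 difference of all genes in SAP against Con was 0.21, and 0.03 after quantile normalization and -0.06 after median centring. The cause of these shifts was not tested. No paired analysis was possible because the groups share no replicate numbers. TPM keeps no depth, and members near 1 TPM, such as Serpina5, Serpina9, Serpinb6a and Serpine2, depend most on the pseudocount.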
